A study of Mus musculus with 16 samples.

Results

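The genes described here are 10 genes of the endothelium and of the haemangioblast, the mesodermal precursor shared by endothelial and blood cells: *Kdr*, *Flt1*, *Tek*, *Tie1*, *Cdh5*, *Pecam1*, *Etv2*, *Erg*, *Fli1* and *Sox18*. They were chosen by name, for what they are known to do, from 29453 genes in the deposited matrix, and all 10 were found there. Their unique molecular identifier (UMI) counts, each the count of 1 captured transcript, were summed per library, stage and cell type label in single-cell RNA-seq of chimeric mouse embryos. The labels were transferred by the authors from an atlas of mouse gastrulation.

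Chimeras were made from wild-type (WT) host blastocysts of the CD1 strain, into which *Stat3* null embryonic stem cells (ESCs) were injected. The null ESCs, also of CD1 background, came from *Stat3* heterozygous mice, with a neomycin resistance cassette in place of part of the gene, and carried an H2B-tdTomato transgene after transfection and colony picking. Null cells are therefore the tdTomato-positive fraction of an embryo and WT cells the tdTomato-negative host fraction of the same chimeras, so that genotype, cell line and transgene cannot be told apart. There were 2 null and 2 WT libraries from embryonic day (E) 7.5, again 2 and 2 from E8.5, and 4 and 4 from E9.5. Libraries carry the letters A to D within a group, and a letter is only a name.

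Doublets, and cells of the WT sort in which a tdTomato UMI was found, were set apart. This left 37841 cells, 17387 null and 20454 WT. A library held 360 to 4327 of them and 20682659 to 138613245 UMIs. The median cell held between 18205 and 57791.5 UMIs. E9.5 WT C and WT D shared 292 cell barcodes (15.3% of the smaller library), whereas no other pair of libraries shared more than 8. Of these shared barcodes, 3.42% had the same cell type in both libraries, against 3.30% expected from the cell type shares. Leaving the shared barcodes out changed no count of calls on the 10 genes, except within cell types from E8.5 to E9.5, where it gave 21 calls in place of 20. Nothing in the library names says which embryo pool a library came from, so p-values measure the spread between libraries, which may be technical or lie between pools. For E7.5 the study sorted the embryos by size, large or small, and pooled them. Which E7.5 library holds which size is not known, so these libraries may differ in embryo size and are not plain replicates. The study's methods give a pair of embryos for E9.5. That is fewer than the 4 libraries per genotype, so libraries of E9.5 share embryos and p-values over them are too small.

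KDR and FLT1 are receptors for vascular endothelial growth factor (VEGF), and KDR carries most of the signal while FLT1 acts largely as a trap for the ligand. In the gastrulating embryo *Kdr*-positive mesoderm gives rise to endothelium and blood, and the ETS factor ETV2 starts the endothelial and blood programs before it is switched off again in the vessels that form. TEK (TIE2) is the receptor for angiopoietins and TIE1 is its partner. CDH5 (VE-cadherin) and PECAM1 hold endothelial cells together at their junctions. ERG and FLI1 are ETS factors that maintain endothelial identity, FLI1 also acting in megakaryocytes, and SOX18 is a SOX factor of vascular and lymphatic development. Cells of both lineages arise early in the yolk sac, the allantois and the embryo proper.

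In the GRCm38 build (GENCODE vM21) *Kdr* lies at chr5:75932827-75978458 and *Flt1* at chr5:147561604-147726011, both on the minus strand. *Tek* lies at chr4:94739289-94874976 on the plus strand and *Tie1* at chr4:118471191-118490061 on the minus strand. *Cdh5* is at chr8:104101625-104144511 (plus) and *Pecam1* at chr11:106654217-106750628 (minus). The transcription factor genes are *Etv2* at chr7:30633616-30635852, *Erg* at chr16:95359169-95586593, *Fli1* at chr9:32422204-32542861 and *Sox18* at chr2:181669836-181671640, all on the minus strand. All 10 are protein coding, and 0 of them share exonic sequence with another gene on the same strand, where reads could be split.

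Promoter sequences of RefSeq (GRCm38.p6) covered 6 of the 10 genes with 8 start sites. Those of 4 genes are shown as the 250 bases before the start site, read 5′ to 3′ on the strand of the gene. They were picked by their changes across the stages in the sum of the endothelial labels described below, whose make-up changed as well. In that sum *Tie1* and *Tek* rose from E7.5 to E8.5, *Kdr* did not pass the test and *Etv2* fell from E8.5 to E9.5. Changes within single labels differed from these, and a link to the promoter sequences was not tested. Capitals mark matches to AGGAAG or CCGGAA, 6-letter words around the GGAA core that ETS factors bind, searched on both strands.
Tie1, chr4:118489850-118490099, minus strand: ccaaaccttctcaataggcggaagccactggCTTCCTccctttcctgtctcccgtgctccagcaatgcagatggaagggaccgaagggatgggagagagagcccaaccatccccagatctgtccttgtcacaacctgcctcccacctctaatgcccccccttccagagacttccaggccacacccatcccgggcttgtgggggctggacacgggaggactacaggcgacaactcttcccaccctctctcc
Tek, chr4:94739039-94739288, plus strand: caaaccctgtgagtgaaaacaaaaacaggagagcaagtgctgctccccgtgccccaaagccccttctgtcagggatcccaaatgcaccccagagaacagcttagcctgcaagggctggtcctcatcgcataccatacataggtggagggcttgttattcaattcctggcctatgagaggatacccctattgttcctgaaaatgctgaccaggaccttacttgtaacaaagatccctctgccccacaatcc
Kdr, chr5:75978456-75978705, minus strand: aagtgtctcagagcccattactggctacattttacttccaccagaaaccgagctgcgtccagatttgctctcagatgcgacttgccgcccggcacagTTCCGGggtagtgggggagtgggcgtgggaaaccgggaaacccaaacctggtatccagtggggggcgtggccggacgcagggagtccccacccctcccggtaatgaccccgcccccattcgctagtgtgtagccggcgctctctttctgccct
Etv2, chr7:30635853-30636102, minus strand: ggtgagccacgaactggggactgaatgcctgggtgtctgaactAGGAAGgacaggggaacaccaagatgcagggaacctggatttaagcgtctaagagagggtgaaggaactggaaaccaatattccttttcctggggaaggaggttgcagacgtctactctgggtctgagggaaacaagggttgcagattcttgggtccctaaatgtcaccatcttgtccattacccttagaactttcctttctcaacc

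In *Tie1* the match is AGGAAG read on the opposite strand, 219 bases before the start site, and in *Etv2* it is AGGAAG 207 bases before the start. *Kdr* holds CCGGAA on the opposite strand 153 bases before its start site, and *Tek* holds neither word. *Flt1* has AGGAAG at 129 and at 53 bases before its start site. *Erg* has 3 start sites, of which 1 (window chr16:95459349-95459598) has AGGAAG on the opposite strand 40 bases before it. The same window holds the word GATAAG, bound by blood and endothelial zinc finger factors, 104 bases before the start. Of 8 windows, 5 thus hold AGGAAG or CCGGAA. Among 32851 promoters of the annotation, 29.5% hold AGGAAG, 12.0% hold CCGGAA and 6.55% hold GATAAG. The palindromic STAT word TTCNNNGAA is in 7.02% of all promoters and was not found in these windows. No match overlaps another.

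The first question was which cells held the transcripts. The endothelial class used below joins Venous endothelium (307 cells), YS endothelium (yolk sac, 221 cells), Haematoendothelial progenitors (206), Embryo proper endothelium (178), Allantois endothelium (120), Endocardium (80) and 1 cell of a yolk sac mesothelium-derived label, 1113 cells in all. *Cdh5* and *Sox18* were the genes most restricted to it, with 88.2% and 87.4% of their UMIs over all libraries in these cells. The shares were 68.5% for *Tie1*, 59.6% for *Kdr*, 57.9% for *Erg* and for *Pecam1*, 53.7% for *Etv2*, 52.4% for *Flt1* and 51.9% for *Tek*. *Fli1* had 25.6% of its UMIs in the class. These shares pool the stages, which differed. At E7.5 the class held 88.7% of *Erg*, 87.1% of *Sox18*, 65.6% of *Fli1* and 63.6% of *Cdh5* UMIs. At E9.5 it held 46.2%, 84.0%, 12.0% and 91.9% of them in the same order. Blood labels held a further 23.3% of *Tie1*, 20.3% of *Pecam1*, 18.6% of *Fli1* and 11.6% of *Erg* UMIs.

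**Figure D1:**
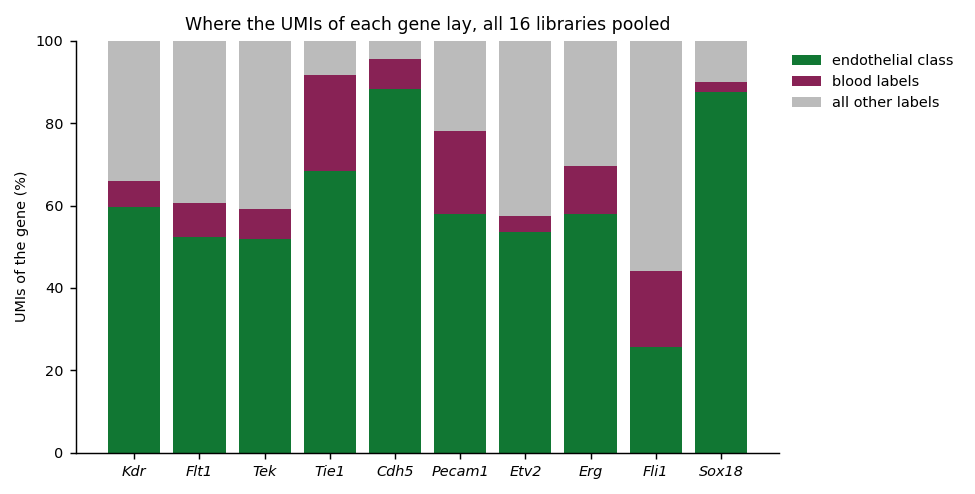
Share of the UMIs of each gene (y axis, percent, all 16 libraries pooled) in the endothelial class (green), in blood labels (purple) and in all other labels (grey). With the stages pooled, *Cdh5* and *Sox18* lie mostly in the class (88.2% and 87.4%), and *Fli1* lies mostly outside it (25.6% inside).

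Levels are given as CPM (counts of a gene per 10⁶ UMIs of the cells summed) and means are over libraries with more than 5 cells of a label, with SD. Since the labels were themselves assigned from expression, the order of levels over labels is a description and was not tested. *Cdh5* was highest in YS endothelium (385 ± 47.2 CPM, n = 11), then Endocardium (297 ± 52.4, n = 7), Venous endothelium (249 ± 48.3, n = 14), Allantois endothelium (76.0 ± 20.6, n = 6), Haematoendothelial progenitors (34.7 ± 5.49, n = 4) and Embryo proper endothelium (26.9 ± 25.4, n = 11). Of these neighbors, YS endothelium and Endocardium, Venous and Allantois endothelium, and Allantois endothelium and Haematoendothelial progenitors lay apart by more than the root of their summed squared SDs, the measure of spread between labels used here, and the other two pairs did not.

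*Etv2* had nearly the opposite order. It reached 767 ± 231 CPM in Embryo proper endothelium, 438 ± 95.1 in Allantois endothelium, 278 ± 92.1 in Haematoendothelial progenitors, 69.6 ± 31.4 in Venous endothelium, 38.4 ± 20.6 in Endocardium and 5.73 ± 4.95 in YS endothelium, over the same numbers of libraries. Every step but the one from Venous endothelium to Endocardium exceeded the spread. The label with the most *Etv2* was therefore the one with the least *Cdh5*, a junction gene.

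The angiopoietin receptor pair and *Pecam1* followed *Cdh5*. *Tie1* was at 117 ± 23.3 CPM in YS endothelium and 116 ± 31.9 in Endocardium, above 64.6 ± 24.4 in Venous endothelium, 14.9 ± 7.44 in Allantois endothelium, 6.38 ± 7.12 in Embryo proper endothelium and 5.91 ± 2.77 in Haematoendothelial progenitors. *Tek* fell from 162 ± 52.0 CPM in YS endothelium and 129 ± 37.7 in Endocardium to 89.2 ± 12.4 in Venous and 60.8 ± 8.61 in Allantois endothelium, with 35.2 ± 24.8 in Embryo proper endothelium and 21.8 ± 3.08 in Haematoendothelial progenitors. *Pecam1* ran from 183 ± 23.3 CPM in YS endothelium to 19.0 ± 12.9 in Embryo proper endothelium. For all 3 genes the levels of YS endothelium and Endocardium did not differ beyond their spread.

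*Kdr* lay between 230 ± 109 CPM (Endocardium) and 538 ± 63.7 (YS endothelium), *Flt1* between 123 ± 60.9 (Embryo proper endothelium) and 329 ± 63.9 (YS endothelium), and *Fli1* between 96.4 ± 30.8 (Endocardium) and 227 ± 50.3 (Allantois endothelium). *Erg* was highest in YS endothelium (73.3 ± 14.4 CPM) and lowest in Haematoendothelial progenitors (12.1 ± 6.59). None of the neighboring labels in the orders of these 4 genes lay apart beyond their spread. *Sox18* differed only at its lower end, with 35.4 ± 24.9 CPM in Embryo proper endothelium against 5.07 ± 3.41 in Haematoendothelial progenitors. Of 50 neighboring pairs over the 10 genes, 14 lay apart. These means pool the stages, and the labels do not share them: Haematoendothelial progenitors were read at E7.5, and YS endothelium and Endocardium at E8.5 and E9.5. Within Venous endothelium *Fli1* was at 373 ± 120 CPM at E7.5 (SD, n = 2), 194 ± 18.4 at E8.5 (n = 4) and 131 ± 13.8 at E9.5 (n = 8). *Kdr* there was at 753 ± 231, 311 ± 36.7 and 358 ± 62.8 CPM at the same stages.

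**Figure D2:**
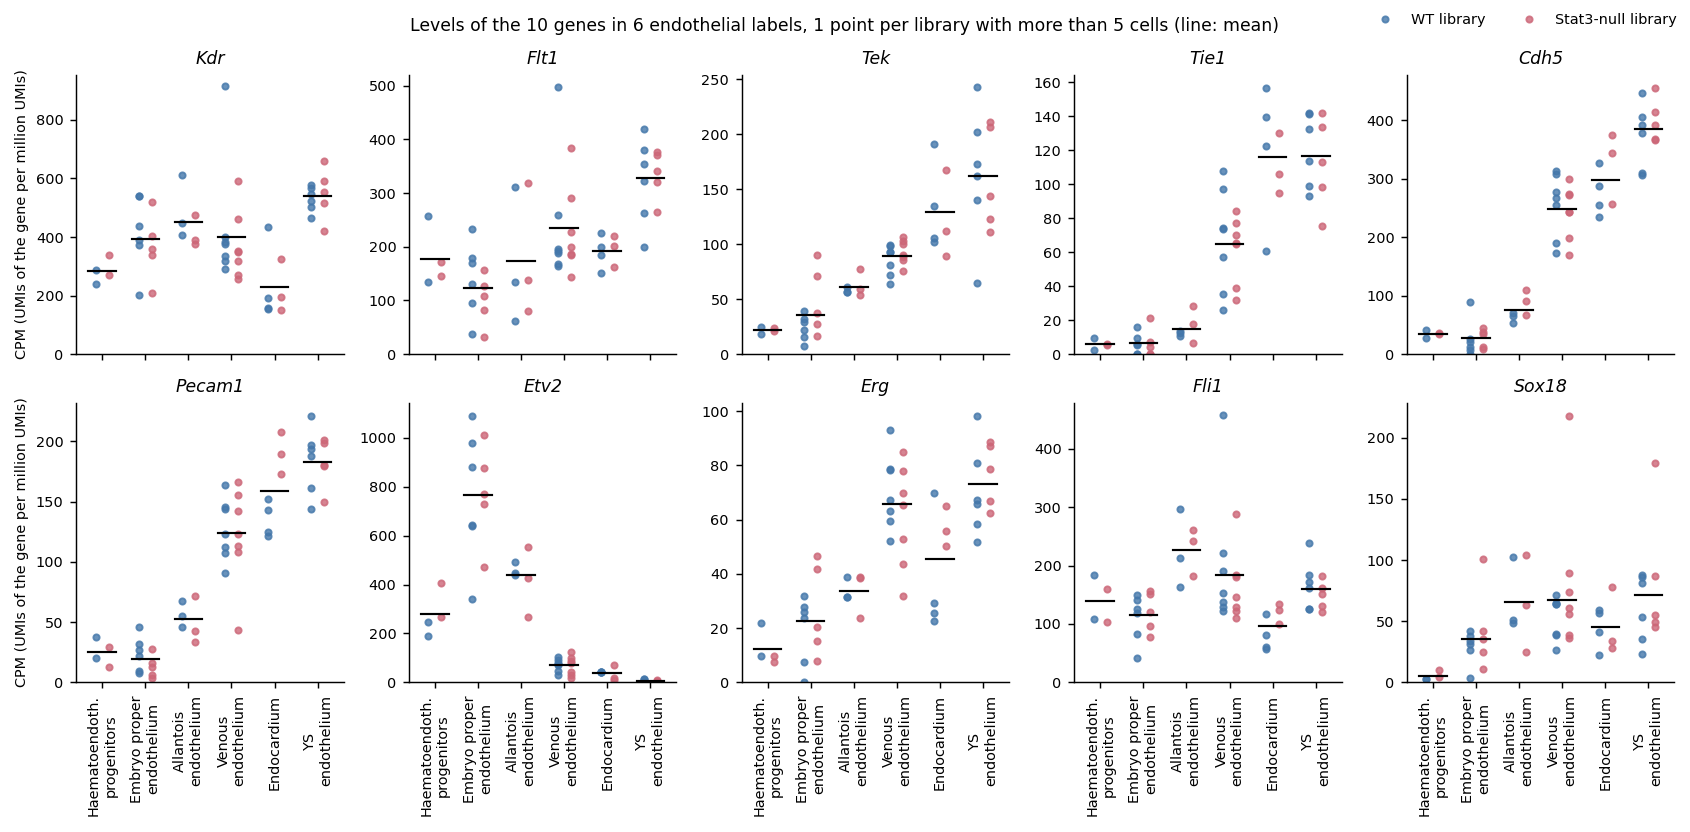
CPM (y axis, linear, from 0) of each of the 10 genes in the 6 endothelial labels (x axis), with 1 point per library of more than 5 cells (color: WT or *Stat3* null) and a line at the mean. *Cdh5* runs from 385 CPM in YS endothelium down to 26.9 in Embryo proper endothelium, and *Etv2* from 767 in Embryo proper endothelium down to 5.73 in YS endothelium.

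Shares of cells with a UMI were read as well. A *Cdh5* UMI was found in 98.4% of Venous endothelium cells and in 31.5% of Embryo proper endothelium cells, and an *Etv2* UMI in 52.1% and 91.0% of them. Free RNA in droplets sets a background, read here in Sclerotome, where 0.874% of cells held a *Cdh5* UMI and 5.30% an *Etv2* UMI at a median of 30552 UMIs per cell, and in Erythroid cells, where the shares were 1.09% and 5.38% at 34310.5 UMIs. The labels of the class had medians between 21935 UMIs (YS endothelium) and 38376 UMIs (Haematoendothelial progenitors). With every cell thinned to 10000 UMIs the *Cdh5* shares became 89.3% and 14.6% and the *Etv2* shares 34.2% and 86.0%, and Sclerotome gave 0.164% and 1.91%. *Etv2* in YS endothelium, in 7.69% of cells unthinned and 3.62% thinned, stood little above the shares in Sclerotome. *Etv2* in Sclerotome was itself called lower at E9.5 than at E8.5 (log2 fold change -1.90, edgeR adjusted p = 0.0131). Whether its UMIs there were free RNA alone was not tested. Of the 10 genes, the median thinned YS endothelium cell held 7, the median Venous endothelium cell 6 and the median Haematoendothelial progenitor 3, against 0 in Sclerotome. The mean thinned cell held 0.399 of them in Sclerotome, 0.0971 in Erythroid cells and 0.0535 in Dorsal midbrain neurons. Most of the value in Sclerotome was *Fli1*, found in 33.0% of its thinned cells, against 1.41% of Erythroid cells and 2.14% of Dorsal midbrain neurons. Sclerotome was among the labels highest in *Fli1* outside the class and blood, so these means do not measure free RNA alone.

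The labels were checked against 8 endothelial markers that are not among the 10 genes. All were detected in each label of the class, but also in Sclerotome, Erythroid cells and Dorsal midbrain neurons, so detection does not tell labels apart. Their summed level fell from 4447 CPM in YS endothelium to 1242 in Embryo proper endothelium and 587 in Haematoendothelial progenitors. Sclerotome, Erythroid cells and Dorsal midbrain neurons were at 87.6, 59.5 and 38.3 CPM. In Haematoendothelial progenitors the tight junction gene *Cldn5* was at 1.44 CPM and *Emcn*, the gene of a sialomucin of veins and capillaries, at 0.840 CPM. Nearly all of the 587 CPM in this label thus came from the other endothelial markers. The blood factors *Runx1* and *Gata1* were there at 145 and 26.2 CPM. They belong to a list of 8 blood markers, which summed to 287 CPM in this label. The same list summed to 265 CPM in Venous, 299 CPM in Embryo proper and 397 CPM in YS endothelium, so its sum did not set this label apart. In E9.5 null C, 5 cells carried this label, and 8 of the 10 genes had 0 UMIs in them, *Kdr* and *Etv2* among these. *Pecam1* and *Fli1* had 1 UMI each there.

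Outside the class the genes were found in different places, given here as means ± SD over libraries with more than 15 cells of the type. *Fli1* was at 294 ± 44.7 CPM (n = 5) in Megakaryocyte progenitors, against 206 ± 39.8 (n = 3) in Allantois endothelium on the same scale. *Kdr* and *Pecam1* were at 93.6 ± 26.3 and 29.7 ± 3.47 CPM in these progenitors. *Flt1* was at 138 ± 46.8 CPM (n = 9) in Amniotic ectoderm. *Etv2* was at 80.2 ± 44.9 CPM (n = 3) in Nascent mesoderm, the tissue that leaves the primitive streak, and at 48.4 ± 40.9 CPM (n = 10) in Lateral plate mesoderm. By stage, Lateral plate mesoderm held 86.1 ± 26.4 CPM of *Etv2* at E7.5 (n = 4), 33.8 ± 27.0 at E8.5 (n = 4) and 2.30 ± 3.25 at E9.5 (n = 2). *Erg* and *Cdh5* were at 21.5 ± 12.5 and 17.9 ± 22.5 CPM (n = 9) in EMP (erythro-myeloid progenitors). *Tek* was at 29.8 ± 22.3 CPM (n = 16) in Mesenchyme and 26.3 ± 16.1 CPM (n = 10) in YS mesothelium.

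The next question was whether *Stat3* null cells differed from WT cells in these genes. *Stat3* itself was read in the endothelial class first. It was at 17.3 to 21.0 CPM in WT and 2.61 to 2.65 CPM in null libraries at E7.5, at 18.8 to 24.1 and 3.44 to 4.37 CPM at E8.5, and at 18.0 to 23.5 and 4.94 to 6.62 CPM at E9.5. The genotypes did not overlap at any stage. The edgeR quasi-likelihood test gave log2 fold changes of -2.86 (adjusted p = 0.00132), -2.33 (adjusted p = 0.209) and -1.68 (adjusted p = 4.31e-04). Reads from the 3′ end can lie outside the replaced part of the gene, so the residual level does not measure the deletion.

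The minimum taken from the study, over 15 cells per library, was met by 2 or more libraries of either genotype only in Venous endothelium at E9.5. The class was therefore also summed per library, and labels with more than 5 cells per library were fitted, both chosen after seeing the data. Calls needed both an adjusted p (Benjamini-Hochberg over all genes tested in a fit) under 0.05 and a log2 fold change over 1 in either direction. Whether the values of the genotypes overlap is given as a description only. With so few libraries per genotype, values can lie apart without a difference, and the share of all genes that did so was not counted.

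In the summed class 0 of the 10 genes were called at any stage, and all 10 passed the filter on low counts at each stage. Of all genes tested in the class by edgeR, 0.11% were called at E7.5, 0% at E8.5 (0 of 9286, with 312 at an unadjusted p under 0.05) and 0.0823% at E9.5. No gene of the 10 had an unadjusted p under 0.05 either. Their log2 fold changes (null minus WT) ran from -0.42 to 0.61 at E7.5 (median -0.05), from -0.15 to 0.95 at E8.5 (median 0.18) and from -0.13 to 0.22 at E9.5 (median 0.09), against medians of 0.00, 0.01 and 0.00 over all genes tested. DESeq2 called 0 of the 10 as well.

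*Cdh5* was at 54.2 and 30.2 CPM in the class of the WT libraries at E7.5 and at 44.1 and 35.5 CPM in that of the null libraries. At E8.5 it was at 245 and 112 CPM in WT and at 253 and 208 CPM in null libraries. At E9.5 the WT libraries A to D stood at 237, 290, 217 and 259 CPM and the null libraries at 275, 304, 222 and 238 CPM. The genotypes overlapped at every stage. At E9.5 the log2 fold change was 0.07 (SE 0.10, 95% interval -0.14 to 0.27).

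*Etv2* was at 538 and 295 CPM in WT and at 515 and 383 CPM in null libraries at E7.5. At E8.5 it was at 259 and 385 CPM in WT and 199 and 369 CPM in null libraries. At E9.5 it was at 149, 101, 125 and 108 CPM in WT and at 116, 56.5, 130 and 125 CPM in null libraries. The values overlapped at each stage, and E9.5 null B was the lowest of all. The interval at E9.5 was wider than for *Cdh5*, from -0.74 to 0.47 around -0.13 (SE 0.26).

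*Kdr* had an interval of -0.32 to 0.38 around 0.03 (SE 0.15) at E9.5, where it was at 337 to 423 CPM in the WT and 281 to 468 CPM in the null libraries. For the other genes at E9.5 the ends of the intervals lay within -0.43 and 0.76, both those of *Sox18*.

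*Sox18* had the largest fitted difference of the 10, at E8.5. It was at 68.5 and 47.7 CPM in WT A and B and at 71.2 and 154 CPM in null A and B. Both null libraries lay above both WT libraries, null A by little and null B by more. The log2 fold change was 0.95 (SE 0.45, edgeR adjusted p = 1.00), and leaving out each E8.5 library in turn gave 0.31 to 1.49. In null B *Sox18* was also high within Venous endothelium (218 CPM in 7 cells, against 64.2 to 73.7 CPM in the other E8.5 libraries) and within YS endothelium (179 CPM in 13 cells, against 53.5 to 87.5 CPM). *Cdh5* in the same cells of null B was at 169 CPM and 455 CPM, against 174 to 266 and 379 to 446 CPM in the others. At E9.5 *Sox18* was at 32.6 to 61.2 CPM in WT and 35.0 to 71.3 CPM in null libraries, and averaged over stages the log2 fold change was 0.56 (95% interval -0.13 to 1.26), with 0 of the 10 genes called and 0.121% of all genes called in that average.

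**Figure D3:**
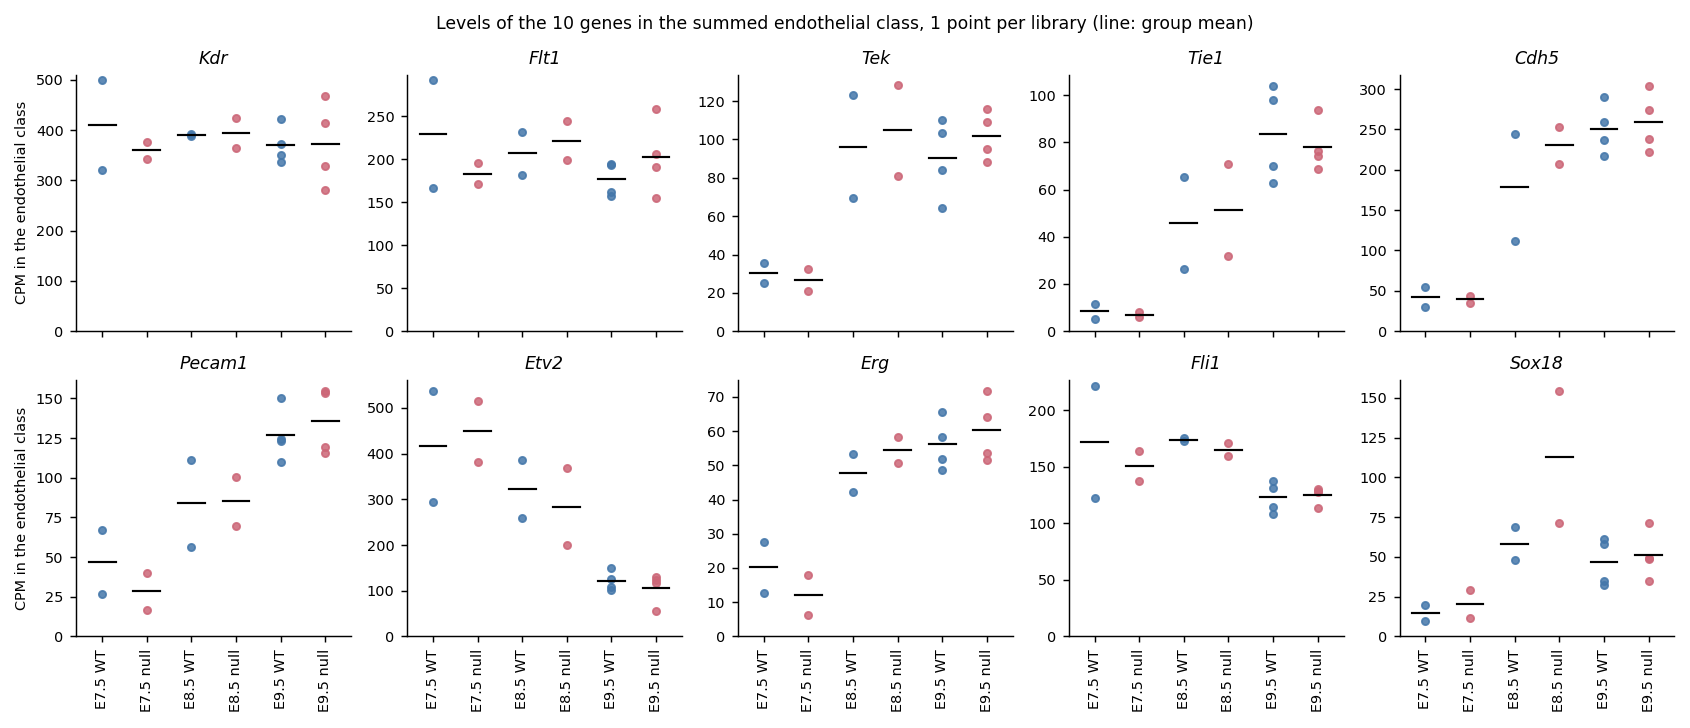
CPM (y axis, linear, from 0) of each of the 10 genes in the summed endothelial class by stage and genotype (x axis), with 1 point per library and a line at the group mean. Null and WT points overlap for *Cdh5* and *Etv2* at every stage, and E8.5 null B stands high for *Sox18* (154 CPM).

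**Figure D4:**
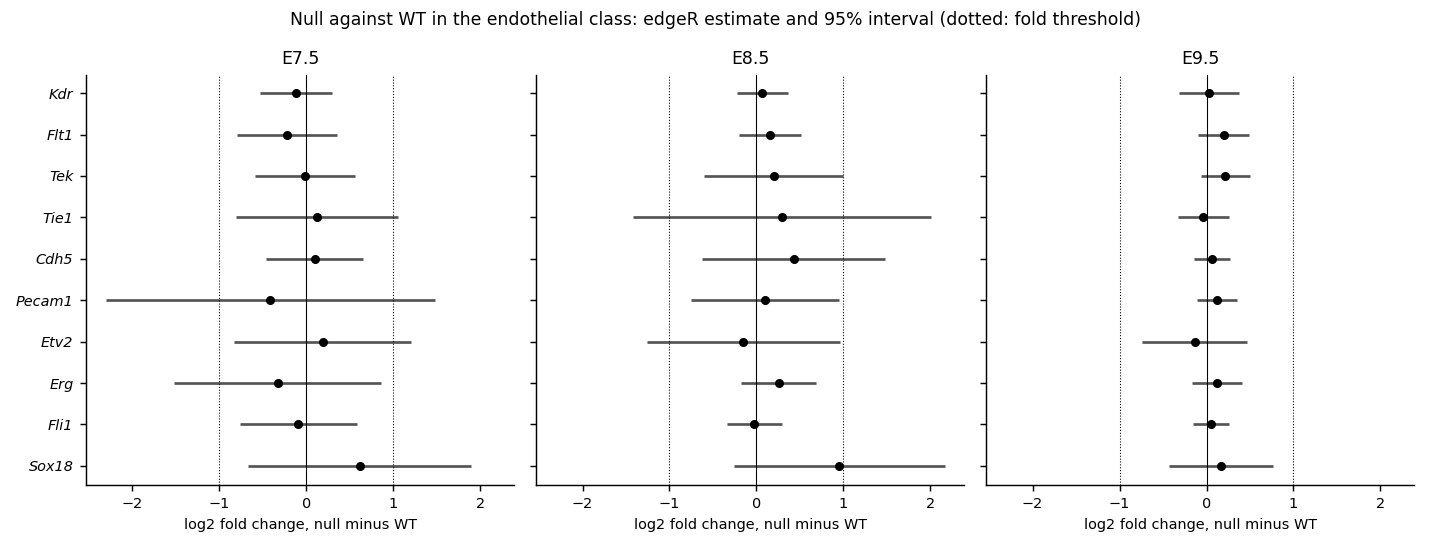
log2 fold change of null against WT cells (x axis) for the 10 genes (y axis) in the endothelial class at the 3 stages in turn, as the edgeR estimate with its 95% interval, and with dotted lines at the fold threshold. Every estimate lies within the dotted lines, and the intervals are narrowest at E9.5, with 4 libraries per genotype, for every gene but *Kdr*.

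Blood markers in the class differed between genotypes at E9.5. The summed level of 8 blood markers (7 of them detected, *Gata1* at 0 in both groups) was 106 to 475 CPM in the WT libraries and 18.6 to 30.4 CPM in the null libraries, which did not overlap. At E7.5 it was 120 to 214 CPM in WT and 123 to 175 CPM in null, and at E8.5 684 to 777 and 236 to 758 CPM. The list holds the globin genes *Hba-x* and *Hbb-bh1*. Over all libraries the same 8 markers summed to 193 CPM in Sclerotome and 149 CPM in Dorsal midbrain neurons. In Erythroid cells they summed to 115574 CPM. Free RNA was not separated from the values in the class. The part of blood transcripts in the comparisons at E9.5 was not tested. Markers of other cells lay lower in the class than the endothelial ones, between 26.6 and 137 CPM in a library for 3 mesenchyme markers, 2.12 and 39.1 CPM for 3 endoderm markers, 1.59 and 37.1 CPM for 2 neural markers, and 8.60 and 147 CPM for 2 heart muscle markers, and the genotypes overlapped in each at E9.5. The endoderm markers were lower in null libraries without overlap at E7.5 and E8.5, and the heart muscle markers at E8.5, and their part was not tested.

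Within single labels of more than 5 cells, 0 of 9 tests at E7.5, 0 of 36 at E8.5 and 0 of 33 at E9.5 were called by edgeR (1, 4 and 4 at an unadjusted p under 0.05), where 0.128%, 0.00906% and 0.0933% of all tests were. The 4 at E8.5 were all in Embryo proper endothelium and all higher in null cells, with log2 fold changes of 1.23 for *Cdh5*, 0.95 for *Tek*, 0.92 for *Sox18* and 0.78 for *Erg* and adjusted p-values of 0.944 to 0.988 by edgeR. *Cdh5* was there at 7.44 and 21.4 CPM in WT and 34.4 and 38.8 CPM in null libraries. For *Tek* the genotypes overlapped and for the others they did not, and how many of all genes did not overlap was not counted. In that fit 4.92% of all genes had an unadjusted p under 0.05. At E9.5 the same label gave *Cdh5* the opposite sign, with 26.1 and 90.1 CPM in WT and 12.3 and 45.1 CPM in null libraries (-0.68, edgeR adjusted p = 0.995). *Erg*, which did not pass the filter on low counts there, was at 26.1 and 31.8 CPM in WT and at 7.84 and 20.5 CPM in null libraries, without overlap. *Tek* again had a positive log2 fold change (0.97, edgeR adjusted p = 0.995), with means of 27.5 CPM in WT and 63.8 CPM in null libraries. The genotypes overlapped for *Tek* at E9.5 too. The 4 at E9.5 were all in Endocardium, again higher in null cells, with 1.25 for *Erg*, 0.99 for *Fli1*, 0.62 for *Pecam1* and 0.48 for *Cdh5* (adjusted p = 0.549 to 0.888), where 5.62% of all genes had an unadjusted p under 0.05. In these 4 the 3 WT and 2 null libraries with more than 5 cells did not overlap, while null D, with 5 cells, had *Cdh5* at 151 CPM, below the 235 to 287 CPM of those WT libraries. *Etv2* in the same libraries was lower in null cells, at 9.32 and 16.7 CPM against 40.9 to 44.1 CPM in WT, while WT C, with 5 cells, was at 5.29 CPM. At E8.5 Endocardium had 1 library of more than 5 cells per genotype and no test. The null library was there the lower one for *Cdh5* (256 against 327 CPM), *Erg* (50.2 against 69.7 CPM) and *Fli1* (100.3 against 118 CPM) and the higher one for *Pecam1* (173 against 152 CPM).

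The 1 test at E7.5 with an unadjusted p under 0.05 was that of *Etv2* in Haematoendothelial progenitors. *Etv2* in Haematoendothelial progenitors at E7.5 was at 247 and 189 CPM in WT and 407 and 269 CPM in null libraries, so that the genotypes did not overlap. Its log2 fold change was 0.75 (SE 0.19, adjusted p = 0.350). With null B left out it was 1.02 and passed both thresholds, in a fit with 1 null library that was assumed to vary as the WT libraries did.

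In Venous endothelium at E9.5, *Etv2* was at 69.7, 91.8, 102 and 31.6 CPM in WT and 16.9, 30.8, 44.1 and 78.0 CPM in null A to D. The genotypes overlapped: WT A and D lay within the null range, and null C and D within the WT range. Over these 8 libraries the log2 fold change was -0.75 (SE 0.56, edgeR adjusted p = 0.990). In the fit restricted to libraries with more than 15 cells it was -1.13 (adjusted p = 0.947, where 0.0839% of genes were called), and without WT D it was called at -1.60 (edgeR adjusted p = 6.39e-04). At E8.5 *Etv2* in the same label had means of 76.1 CPM in the 2 WT and 93.1 CPM in the 2 null libraries, which did not overlap (log2 fold change 0.37, SE 0.26, edgeR adjusted p = 1.00).

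In the 7, 12 and 21 cell types of all kinds in which a member passed the filters at the 3 stages in turn, 0 of 25, 0 of 29 and 0 of 51 tests on the 10 genes were called by edgeR (2, 0 and 7 at an unadjusted p under 0.05). The share of all tests at such an unadjusted p was not read over cell types, so these counts cannot be set against it. At the 3 stages in turn, 7, 6 and 10 of the 10 genes had a test. *Tie1*, *Erg* and *Sox18* had none at E7.5 and E8.5, and *Cdh5* had none at E8.5. Of all genes in the 7, 20 and 37 types fitted, 0.184%, 0.0615% and 0.119% were called. The lowest adjusted p at E9.5 belonged to *Erg* in EMP (log2 fold change -1.41, adjusted p = 0.176) and *Kdr* in Cardiopharyngeal progenitors SHF (-1.34, adjusted p = 0.196). Without the filter on low counts *Erg* in EMP was called at -1.40 (edgeR adjusted p = 0.0221) and *Kdr* in Cardiopharyngeal progenitors SHF at -1.33 (adjusted p = 0.0127). At E7.5 the lowest belonged to *Flt1* in Mesenchyme (-0.80, adjusted p = 0.113).

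Over whole libraries, where fewer cells of a type and less RNA per cell cannot be told apart, 0 of the 10 genes were called at any stage, against 2.35%, 0.0278% and 0.579% of all genes at the 3 stages in turn. An unadjusted p under 0.05 was found for 3, 2 and 0 of the 10 genes, and for 12.9%, 4.57% and 10.3% of all genes. The log2 fold change was positive for 10, 9 and 8 of them, with medians of 0.49, 0.22 and 0.11, against 0.02, 0.00 and 0.00 over all genes. *Etv2* at E7.5 was at 34.4 and 43.1 CPM in WT and 63.1 and 58.9 CPM in null libraries. The null libraries lay above both WT libraries, with a log2 fold change of 0.70 (adjusted p = 0.0497), under the fold threshold. *Fli1* was at 11.4 and 12.1 CPM in WT and 15.4 and 20.4 CPM in null libraries at E7.5 (0.64, adjusted p = 0.140). *Sox18* averaged over the stages had a log2 fold change of 0.95 (edgeR adjusted p = 0.102), which was called at 1.17 without E7.5 null A and at 1.03 without E9.5 null A.

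The class made up 7.30% ± 1.07 of null cells and 4.73% ± 2.19 of WT cells at E7.5 (SD, n = 2 and 2). An exact two-sided permutation test of library labels gave p = 0.333, the smallest possible with 2 against 2 libraries. The shares were 4.04% ± 0.157 and 3.40% ± 0.413 at E8.5 (exact permutation p = 0.333, again the smallest possible) and 2.05% ± 0.770 and 1.75% ± 0.652 at E9.5 (n = 4 and 4, exact permutation p = 0.571, with 0.0286 the smallest possible if the libraries were independent). Adjusted over the 3 stages these were 0.500, 0.500 and 0.571.

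The last question was how the genes moved across the stages, in 1 fit over both genotypes. From E7.5 to E8.5, 6 of the 10 genes rose in the endothelial class and 0 fell, where 10.7% of all genes tested rose and 3.42% fell. The receptors *Tie1* and *Tek*, the junction genes *Cdh5* and *Pecam1*, and the factors *Sox18* and *Erg* rose. The VEGF receptors and *Fli1* did not pass the test, and neither did *Etv2*. The median log2 fold change of the 10 genes was 1.52, against 0.00 over all genes tested.

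*Tie1* was at 5.18 to 11.5 CPM in the 4 libraries of E7.5 and at 26.2 to 70.9 CPM in the 4 libraries of E8.5, a log2 fold change of 2.84 (SE 0.37). *Cdh5* went from 30.2 to 54.2 CPM to 112 to 253 CPM (2.39, SE 0.25). *Sox18* went from 9.49 to 29.1 CPM to 47.7 to 154 CPM (2.44, SE 0.42). The stages did not overlap for these genes.

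*Tek* rose by 1.86 (SE 0.22), *Erg* by 1.75 (SE 0.22) and *Pecam1* by 1.30 (SE 0.32) on the log2 scale. The adjusted p-values of the 6 genes by edgeR ran from 5.60e-06 (*Erg*) to 0.00719 (*Pecam1*). The call for *Pecam1* was lost without E7.5 WT B (log2 fold change 0.93) and without E8.5 null A (1.15). *Kdr* had a log2 fold change of 0.06 (95% interval -0.26 to 0.39), *Flt1* of 0.11 (-0.26 to 0.48), *Fli1* of 0.13 (-0.13 to 0.40) and *Etv2* of -0.50 (-1.14 to 0.15, edgeR adjusted p = 0.207).

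The make-up of the class changed between these stages as well. Haematoendothelial progenitors were 62.7% of its cells at E7.5 (34.8% to 79.3% in single libraries) and 0.959% at E8.5, while YS endothelium went from 0% to 30.7% and Venous endothelium from 5.23% to 25.2%. In the class sum a change of make-up and a change within cells cannot be told apart.

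Both stages were read in 2 or more libraries of over 5 cells in 3 labels, and these were compared by stage in an edgeR fit over both genotypes with genotype as an additive term. These were Embryo proper endothelium (3 libraries of E7.5 and 4 of E8.5) and Allantois and Venous endothelium (2 and 4 each). Of 27 tests on the 10 genes 5 were called, 3 up and 2 down. The upward calls were all in Embryo proper endothelium, where 3.16% of genes rose and 1.84% fell: *Tek* by 1.56 (SE 0.36, adjusted p = 0.00383), *Cdh5* by 1.91 (SE 0.51, adjusted p = 0.0133) and *Erg* by 1.83 (SE 0.40, adjusted p = 0.00203) on the log2 scale. *Cdh5* there was at 0 to 11.4 CPM at E7.5 and at 7.44 to 38.8 CPM at E8.5. None of these 3 calls was made without E7.5 null A or without E8.5 null A, and DESeq2 called *Erg* alone.

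The VEGF receptors, not called in the class, had lower means at E8.5 in each of these labels. *Kdr* in Venous endothelium was at 590 and 916 CPM at E7.5, in libraries of 6 and 7 cells, and at 271 to 348 CPM at E8.5, a called fall (log2 fold change -1.16, SE 0.16, edgeR adjusted p = 4.93e-08, where 1.52% of genes fell), which without E7.5 WT A was -0.81 and under the fold threshold. In Embryo proper endothelium *Kdr* was at 519 to 541 CPM and then at 337 to 402 CPM (-0.44, adjusted p = 0.0100, under the fold threshold), and in Allantois endothelium its value was -0.34 (adjusted p = 0.178). *Flt1* in Allantois endothelium was at 311 and 319 CPM at E7.5 and at 61.1 to 138 CPM at E8.5. That fall was called (log2 fold change -1.60, SE 0.24, edgeR adjusted p = 8.25e-04, where 1.24% of genes fell). In Venous endothelium *Flt1* had -0.96 (adjusted p = 1.06e-04), just under the fold threshold, and in Embryo proper endothelium -0.36 (adjusted p = 0.155). *Fli1* had 0.71 in Embryo proper endothelium (edgeR adjusted p = 0.00898) and -0.86 in Venous endothelium (adjusted p = 9.87e-04), both under the fold threshold.

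*Pecam1*, called higher in the class, had lower means at E8.5 in each of the 3 labels. In Embryo proper endothelium it was at 12.8 to 26.7 CPM and then at 3.88 to 9.30 CPM, so that the stages did not overlap, but it did not pass the filter on low counts (with no filter -1.33, edgeR adjusted p = 0.127). In Allantois and Venous endothelium its log2 fold changes were -0.41 and -0.38 (adjusted p = 0.496 and 0.476). *Tek* and *Erg* had 0.12 and -0.04 in Allantois and 0.06 and 0.46 in Venous endothelium, none of them called. *Cdh5* had 0.57 in Allantois (edgeR adjusted p = 0.199) and 0.23 in Venous endothelium (adjusted p = 0.633). For *Etv2* the values were -0.36 in Embryo proper endothelium (edgeR adjusted p = 0.0472, under the fold threshold), -0.03 in Allantois and -0.001 in Venous endothelium. *Tie1* had 0 UMIs in the 3 libraries of Embryo proper endothelium at E7.5, means of 15.1 and 14.8 CPM in Allantois endothelium at E7.5 and E8.5, and a log2 fold change of 1.08 in Venous endothelium (adjusted p = 0.113). *Sox18* had positive values in all 3 labels, 1.27, 1.76 and 1.54 in Allantois, Embryo proper and Venous endothelium, with edgeR adjusted p-values of 0.0591, 0.110 and 0.116.

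From E8.5 to E9.5, *Etv2* fell by 1.50 on the log2 scale in the class (SE 0.26, edgeR adjusted p = 0.00440), the only call among the 10 genes, where 1.10% of genes fell and 1.53% rose. It was at 199 to 385 CPM in the 4 libraries of E8.5 and at 56.5 to 149 CPM in the 8 of E9.5, with a median of 120 CPM in null and 117 CPM in WT libraries. The stages did not overlap. Without Haematoendothelial progenitors the log2 fold change was -1.53 (a call, where 1.08% of genes fell). This label was only 0.959% of the class at E8.5 and 2.56% at E9.5, so leaving it out cannot separate a change of make-up. *Fli1* had an adjusted p of 0.00243 but a log2 fold change of -0.55, under the fold threshold (adjusted p alone selected 10.2% of genes). *Sox18* had -0.82 (adjusted p = 0.128) and was called at -1.10 without E8.5 null A.

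Between these stages Embryo proper endothelium, the label highest in *Etv2*, went from 22.5% to 10.3% of the class and Allantois endothelium from 14.4% to 1.54%, while Venous endothelium went from 25.2% to 47.7%. Within single labels *Etv2* did not pass the test. Its log2 fold change was -0.76 in Venous endothelium (edgeR adjusted p = 0.389) and -0.62 in Embryo proper endothelium (adjusted p = 0.427).

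Of 28 tests on the 10 genes in Venous, YS and Embryo proper endothelium, 1 was called. *Flt1* fell in Embryo proper endothelium (log2 fold change -1.27, SE 0.27, edgeR adjusted p = 0.0276). Over all genes 2.08% of tests were called in Venous, 3.05% in YS and 0.64% in Embryo proper endothelium. In the same label *Pecam1* had 2.03 (adjusted p = 0.0593), from 3.88 to 9.30 CPM in the 4 libraries of E8.5 to 16.4 to 45.6 CPM in the 4 of E9.5. For *Fli1* in Venous endothelium the value was -0.65 (adjusted p = 6.38e-05), under the fold threshold, and *Sox18* in YS endothelium -0.95 (adjusted p = 0.0724).

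**Figure D5:**
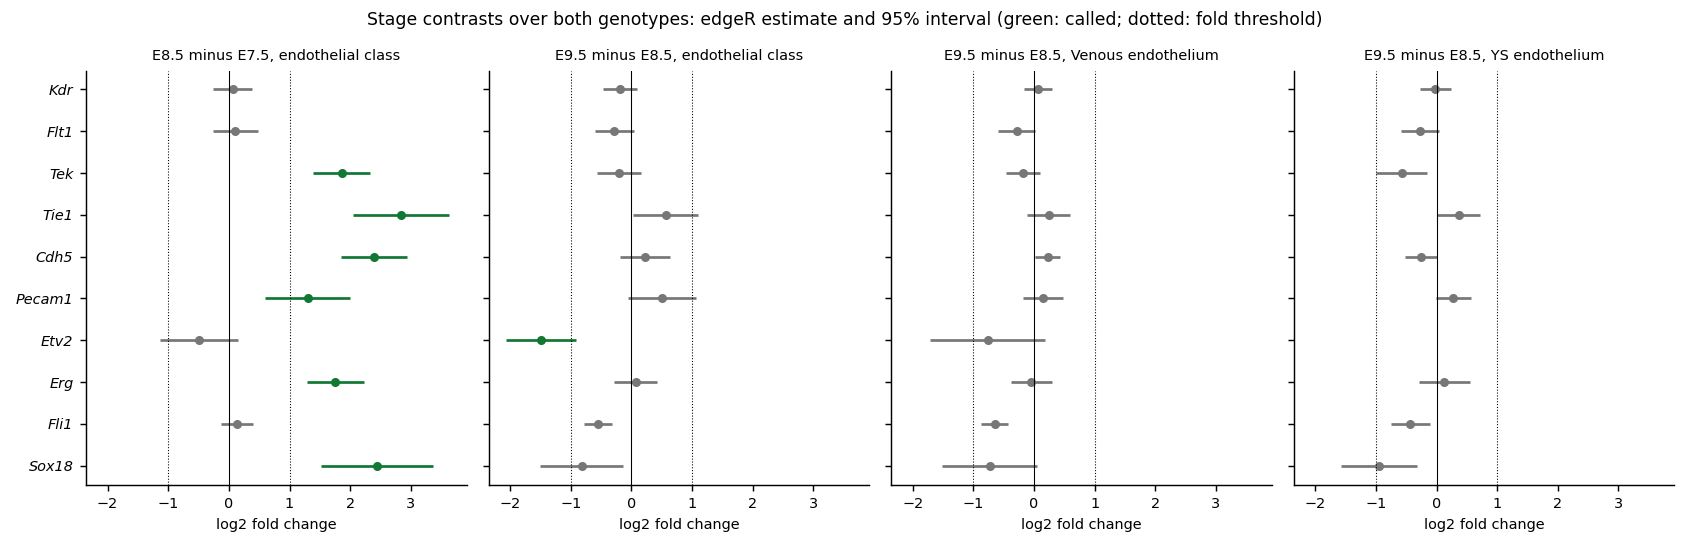
log2 fold change between stages (x axis, later minus earlier, both genotypes) for the 10 genes (y axis) in the endothelial class and in single labels, as the edgeR estimate with its 95% interval, green where called, and with dotted lines at the fold threshold. In the class 6 genes are called higher at E8.5 than at E7.5, and *Etv2* is called lower at E9.5 than at E8.5.

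The difference between genotypes was also compared between stages. In the class 0 of the 10 genes had a called interaction of genotype and stage, from E7.5 to E8.5 or from E8.5 to E9.5, by edgeR, where 0% and 0.0101% of genes had one, and 0 had an unadjusted p under 0.05. Within cell types 0 of 10 and 0 of 35 tests were called (0 and 1 at an unadjusted p under 0.05), against 0% and 0.00806% of all tests. Within single endothelial labels 0 of 28 tests from E8.5 to E9.5 were called (0.0319% of all tests were), and 2 had an unadjusted p under 0.05. Both were in Embryo proper endothelium, where 4.55% of all genes had one, and both ran from higher in null cells at E8.5 to lower at E9.5, by a difference in log2 fold change of -1.998 for *Erg* (SE 0.75, edgeR adjusted p = 0.985) and -1.95 for *Cdh5* (SE 0.89, edgeR adjusted p = 1.00).

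Cell types outside the class also changed over the stages. From E7.5 to E8.5, 5 of 10 tests were called (1 up and 4 down), in Mesenchyme and Lateral plate mesoderm, where 6.47% of all tests were up and 3.64% down. *Flt1* in Mesenchyme went from 59.7 ± 22.7 CPM to 3.93 ± 3.26 CPM (SD, n = 4 and 4, log2 fold change -4.15), and in Lateral plate mesoderm from 19.4 to 2.24 CPM (-3.29). *Pecam1* fell in both, by 2.40 and 3.26 on the log2 scale. *Tek* in Mesenchyme moved the opposite way, from 6.71 to 62.3 CPM (3.07, edgeR adjusted p = 3.82e-05). Over whole WT libraries the mean of *Flt1* went from 26.4 to 10.6 CPM and that of *Tek* from 3.04 to 7.02 CPM. Free RNA was not separated from the values in these types.

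From E8.5 to E9.5, 20 of 35 tests in 12 types were called, 5 up and 15 down, where 3.46% of all tests were up and 1.43% down. *Kdr* was called in 7 types, lower in 6 of them and higher in Optic vesicle (1.74). Over whole libraries its means were lower as well, at 20.5 (WT) and 22.2 CPM (null) at E8.5 and at 11.3 and 12.2 CPM at E9.5. In YS mesothelium *Kdr* went from 28.2 to 8.82 CPM (-1.79) and *Tek* from 43.7 to 14.6 CPM (-1.68). *Fli1* rose in 3 types, from 2.31 to 19.0 CPM in Limb mesoderm (2.84), from 15.1 to 46.0 CPM in Cranial mesoderm (1.17) and in Migratory neural crest (1.33). *Erg* rose with it in Limb mesoderm, from 0.543 to 5.96 CPM (2.80).

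*Etv2* fell in 6 of these types. In Cranial mesoderm it went from 27.1 ± 39.7 to 2.18 ± 1.39 CPM (SD, n = 4 and 8). The other called types were at lower levels, such as from 7.94 to 1.50 CPM in Migratory neural crest. In Allantois *Etv2* went from 37.4 to 0.977 CPM but was not called (log2 fold change -4.83, edgeR adjusted p = 0.0502). Levels in whole libraries were lower at E9.5 than at E8.5 for *Etv2*, *Kdr*, *Tek* and *Flt1*. Free RNA of these genes was not separated from their values in cell types outside the class. *Flt1* in Amniotic ectoderm went from 167 to 94.7 CPM (-0.89, adjusted p = 0.00525), under the fold threshold. With more than 50 cells per library, 5 of 5 tests were called, and with null-sorted cells without a tdTomato UMI left out, 12 of 25.

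A list of 43 other endothelial genes gives the background of the pathway. In the class 0 of 33, 0 of 39 and 0 of 38 that passed the filter were called between genotypes at the 3 stages in turn by edgeR (0, 3 and 5 at an unadjusted p under 0.05), where 0.11%, 0% and 0.0823% of all genes were. Of all genes tested there, 285 of 9106, 312 of 9286 and 466 of 8503 had an unadjusted p under 0.05. In single labels, where 0.0933% of all tests at E9.5 were called, 1 was, *Sox17*, a factor of arterial endothelium, lower in null cells of Embryo proper endothelium at E9.5 (log2 fold change -3.02, SE 0.55, edgeR adjusted p = 0.0411, with 6 to 8 cells per library). At an unadjusted p under 0.05 there were 11 of 32 tests in Embryo proper endothelium at E8.5, where 4.92% of all genes were, and 1 to 5 of 25 to 36 in each of the other 8 combinations of label and stage, where 2.26% to 5.62% of all genes were. Over cell types, 0 of 138, 0 of 315 and 2 of 653 tests on the list were called at the 3 stages (9, 32 and 66 at an unadjusted p under 0.05, a share not read over all tests), where 0.184%, 0.0615% and 0.119% of all tests were called. The 2 at E9.5, named after their values were seen, were *Mef2c* in Mesenchyme, higher in null cells (log2 fold change 1.25, SE 0.24, edgeR adjusted p = 0.0239), and *Efnb2* in Pharyngeal mesoderm, lower at -1.30 (SE 0.26, edgeR adjusted p = 0.00803).

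From E7.5 to E8.5, 24 of 42 were called in the class, 22 up and 2 down, where 10.7% of all genes rose and 3.42% fell. Junction and surface genes rose in 8 of 9 cases, among them *Emcn* (log2 fold change 6.23), *Cldn5* (4.73) and *Icam2* (3.87). Notch and arteriovenous genes rose in 5 of 9, receptors and ligands in 4 of 12. Of 12 transcription factors 5 rose and 2 fell, the blood and endothelial factors *Gata2* (-1.70) and *Tal1* (-1.08). These are class sums, in which a change of make-up and a change within cells cannot be told apart. Haematoendothelial progenitors, low in *Emcn* and *Cldn5*, went from 62.7% to 0.959% of the class between these stages. From E8.5 to E9.5, 5 of 42 were called, where 1.53% of all genes rose and 1.10% fell: *Emcn* (1.90), *Apln* (1.39), *Cd34* (1.29) and *Mef2c* (1.17) rose, and *Tal1* fell again (-1.09). Within labels *Emcn* rose in Venous (1.42) and YS endothelium (2.61).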

How the data were processed

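The authors aligned 10x Genomics 3′ v3 reads with CellRanger to mm10 (GRCm38.p5 annotation with tdTomato added) and deposited raw UMI counts per gene and cell, without normalization, with a table of cells that gives the library, the sort, the mitochondrial percent, a doublet call and a cell type label. Of 192657 barcodes in that table, 41832 passed the filters of the authors and are in the matrix. Doublets (3395 cells) and 596 cells of the WT sort that held a tdTomato UMI were left out, and 1018 null-sorted cells without one were kept. Cells were grouped by the stage and sort that the table of cells gives for their library, since library names match no sample title. All cells analysed had a library, and 0 columns were unmatched.

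Counts were summed per library and label (more than 15 cells) and tested in edgeR 4.0.16 (R 4.3.3) with filterByExpr, TMM factors and a robust quasi-likelihood fit over all genes except 8174 that the study sets aside (predicted, mitochondrial, ribosomal protein, haemoglobin, Y-linked and the like). Genotypes were compared within a stage and stages in 1 fit over both genotypes, without the embryo pool that the study blocks on. From E7.5 to E8.5 in single labels the genotype was an additive term. Alternatives were DESeq2 1.42.0, other factors, filters and cell minimums, other uses of tdTomato, the class sum and each library left out. The fits were tested on simulated data. The 10 genes are all named. These genes and the other lists were chosen with earlier results of these data known. Confidence intervals are at 95%. The summed cells of the class per library numbered 23 to 159, which limits the precision.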

Additional observations from a re-analysis of the deposited data

Results flagged for a closer look

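*Fli1* in the endothelial class was lowest in 1 of the 4 E9.5 null libraries, null D, at 114 CPM (113.926), while the nearest of the others stood at 128 CPM and the highest at 131 CPM. The gap to the nearest library was 0.838 of the range of the group, above the limit for 4 samples in Dixon's test. It was 1 of 70 groups tested in this way, and chance alone gives about 5% of groups.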

How the results depend on the processing

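No paired analysis was possible because library names and sample titles do not match, so that a library carries no embryo pool or replicate number. Between genotypes, 141 of 148 alternative counts had no member called. The exceptions were 1 over whole libraries at E7.5 with no fold threshold (*Etv2*), and within cell types 2 at E8.5 and 3 at E9.5 with no filter on low counts, with a range over left-out libraries of 0 to 1 at each of these stages. With no filter these were *Kdr* in Cranial mesoderm (-2.16) and *Etv2* in Cardiopharyngeal progenitors FHF (-4.77) at E8.5, and *Kdr* in Cardiopharyngeal progenitors SHF (-1.33), *Erg* in EMP (-1.40) and *Pecam1* in Posterior somitic tissues (3.90) at E9.5. With a library left out they were *Etv2* in Cranial mesoderm (-3.40, without E8.5 WT A), *Flt1* in EMP (3.44, without E9.5 null A), *Kdr* in Cardiopharyngeal progenitors SHF (-1.95, without E9.5 null C) and *Etv2* in Venous endothelium (-1.60, without E9.5 WT D). Outside these counts, *Etv2* in Haematoendothelial progenitors at E7.5 (1.02 without null B) and *Sox18* over whole libraries averaged over stages (1.17 without E7.5 null A and 1.03 without E9.5 null A) were also called. With no filter, 1 interaction of genotype with E9.5 against E8.5 was called within cell types (*Kdr* in Cranial mesoderm, 2.54). Over the stages within cell types, 5 calls from E7.5 to E8.5 became 9 with no filter, where more tests were made (20 in place of 10), and 5 to 8 with a library left out (8 without E8.5 WT B). The 20 calls from E8.5 to E9.5 became 31 with no filter, 5 with more than 50 cells per library, 12 with null-sorted cells lacking tdTomato left out, and 14 to 21 with a library left out. In the class, the 1 call from E8.5 to E9.5 became 2 with no fold threshold (*Fli1*) and 1 to 2 with a library left out (*Sox18*, without E8.5 null A), and the 6 calls from E7.5 to E8.5 became 5 without E7.5 WT B or E8.5 null A. Within labels from E7.5 to E8.5, a fit chosen after seeing the data, the 1 call in Allantois endothelium became 2 (*Sox18* higher) with no filter or no genotype term and 1 to 2 with a library left out (2 without E7.5 WT B or E8.5 WT B). The 3 in Embryo proper endothelium became 6 with no fold threshold, 1 with DESeq2, 5 with no filter and 0 to 4 with a library left out (0 without E7.5 null A or E8.5 null A). The 1 in Venous endothelium became 3 with no fold threshold, 2 with no filter (*Sox18* higher) and 1 to 3 with a library left out (3 without E7.5 null A, 2 without E8.5 WT A, WT B or null A, and *Sox18* in place of *Kdr* without E7.5 WT A). The causes were not tested. Of 314 alternative counts 284 stayed within 1.5 times the main count, and of 950 alternative values of single genes in the class 947 kept their side of the threshold, with 0 changes of sign among 103 of called genes and 82 among 847 of genes not called. Depth limits the low genes most, since *Tie1* at E7.5 rested on 5.18 to 11.5 CPM, and the intervals cover 2 libraries per genotype at E7.5 and E8.5.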

Other observations

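Within Venous endothelium, cells were split by whether they held an *Etv2* UMI after thinning to 10000 UMIs, in the 9 libraries that had enough cells of both kinds. Cells with *Etv2* had fewer *Pecam1* UMIs on average in 9 of 9 libraries (median of the library means 0.636 against 1.43 UMIs per cell), fewer *Sox18* UMIs in 8 of 9 (0.400 against 0.571) and fewer *Cdh5* (2.14 against 3.08), *Tek* (0.667 against 1.07), *Erg* (0.500 against 0.706) and *Tie1* UMIs in 7 of 9. *Kdr* and *Fli1* were lower in 4 of 9 and *Flt1* in 6 of 9. Other labels differed in the counts. In Haematoendothelial progenitors, in 3 libraries, *Pecam1*, *Sox18*, *Erg* and *Kdr* were lower with *Etv2* in 0 of 3 (*Kdr* 3.39 against 1.77 UMIs per cell), *Cdh5*, *Tek* and *Flt1* in 1 of 3 and *Tie1* and *Fli1* in 2 of 3. In Endocardium, in 1 library, all 9 genes were not lower with *Etv2*. Allantois endothelium, in 1 library, had lower *Cdh5* (0.577 against 1.57 UMIs per cell), *Pecam1*, *Tek*, *Tie1*, *Kdr* and *Erg* (0.423 against 0.429) with *Etv2*. *Flt1*, *Fli1* and *Sox18* were not lower there. Embryo proper endothelium, in 1 library, had lower *Cdh5*, *Sox18* and *Tie1* with *Etv2*, and the other genes were not lower. The split was made on the data and was not tested.

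The genes whose levels were most like those of the 10 genes were named from 93 combinations of stage and cell type in WT cells, over 11806 genes, by Pearson's r of log2(CPM + 1), as a description across combinations that share libraries. They were *Ctla2a* for *Tie1* (0.94), *Kcne3* for *Cdh5* (0.93), *Adgrg3* for *Pecam1* (0.86), *Rhoj* for *Fli1* (0.87), *Icam2* for *Erg* (0.84), *Klhl6* for *Kdr* (0.77), *Egfl7* for *Flt1* (0.76) and *Ptrf* for *Tek* (0.75). *Etv2* had no gene above 0.64 (*Sde2*). For *Sox18* the value was 0.92 with *Icam2*, second to a clone-named gene at 0.93.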
